A study of Caenorhabditis elegans with 2 samples.

Results

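Replicate 1 of an AMA-1 chromatin immunoprecipitation and sequencing (ChIP-seq) experiment held 1033 strong peaks that had no counterpart in replicate 2. They were chosen by their measured values: the 5000 peaks with the highest signal value were taken from the 27847 peaks of replicate 1 on genome build ce11, and those that overlapped none of the 30000 peaks of replicate 2 by 1 bp or more were kept. The kept peaks were 20.7% of the 5000, where 48.3% of the whole replicate 1 list overlapped no replicate 2 peak. Both figures follow from the selection and are given as a description. The animals were whole young adult Caenorhabditis elegans of the wild-type strain N2, a mixed sample of males and females, with an antibody against AMA-1 and no treatment. The labels give 1 group with 2 biological replicates, each with a biosample of its own, so no conditions could be compared. For comparison, 3967 of the 5000 strongest replicate 1 peaks overlapped a replicate 2 peak (the shared strong peaks). Selected the same way round, 1066 of the 5000 strongest replicate 2 peaks (21.3%) overlapped no replicate 1 peak.

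AMA-1 is the large catalytic subunit of RNA polymerase II, the enzyme that transcribes protein-coding genes and many small RNA genes, so a peak marks DNA recovered with the polymerase more often than in the control. Both lists are the relaxed ones, whose label says that they hold background as well as peaks. In a young adult hermaphrodite a large part of the transcribing nuclei belongs to the germline, which makes oocytes stocked with maternal RNA, while the intestine makes yolk proteins and exports them to the oocytes. Whole animals were used, so fewer cells of a type and less polymerase per cell cannot be told apart. Many worm messages receive a spliced leader, so their annotated 5' ends can lie downstream of where the polymerase started.

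The sequences under 8 of these peaks are shown because the results turn on their genes: the yolk protein gene vit-6, the Argonaute genes csr-1 and hrde-1, the oocyte genes rme-2, cpg-2 and spn-4, and, for contrast, dod-3, far from any replicate 2 peak, and mak-1, with a replicate 2 peak next to it. Each is the 200 bp around the summit of the strongest such peak of the gene, read 5′ to 3′ from the plus strand of the RefSeq genome of WBcel235 (the assembly of ce11), with the 21 bases centred on the summit in capitals.
vit-6 (chrIV:8265963-8266162): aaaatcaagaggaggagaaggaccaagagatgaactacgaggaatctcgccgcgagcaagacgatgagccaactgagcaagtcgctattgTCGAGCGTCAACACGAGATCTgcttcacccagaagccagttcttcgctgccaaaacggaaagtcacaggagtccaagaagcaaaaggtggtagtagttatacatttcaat
csr-1 (chrIV:7960775-7960974): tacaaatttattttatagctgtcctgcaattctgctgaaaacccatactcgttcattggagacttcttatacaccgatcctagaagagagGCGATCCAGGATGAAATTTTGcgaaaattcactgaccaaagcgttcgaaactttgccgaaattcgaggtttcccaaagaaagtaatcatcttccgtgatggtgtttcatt
hrde-1 (chrIII:4174607-4174806): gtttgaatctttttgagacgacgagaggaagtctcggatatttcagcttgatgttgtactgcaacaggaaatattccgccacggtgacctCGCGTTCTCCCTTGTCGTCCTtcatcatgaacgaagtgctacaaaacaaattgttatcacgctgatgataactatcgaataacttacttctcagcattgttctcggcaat
rme-2 (chrIV:5470761-5470960): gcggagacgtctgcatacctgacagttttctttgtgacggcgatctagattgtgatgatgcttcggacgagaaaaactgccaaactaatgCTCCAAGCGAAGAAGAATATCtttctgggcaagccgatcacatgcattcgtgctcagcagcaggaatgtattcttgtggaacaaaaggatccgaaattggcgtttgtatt
cpg-2 (chrIII:7103182-7103381): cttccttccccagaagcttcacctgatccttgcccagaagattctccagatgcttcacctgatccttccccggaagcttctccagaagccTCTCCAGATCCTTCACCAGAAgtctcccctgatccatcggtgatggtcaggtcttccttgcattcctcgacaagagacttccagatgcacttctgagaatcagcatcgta
spn-4 (chrV:6784212-6784411): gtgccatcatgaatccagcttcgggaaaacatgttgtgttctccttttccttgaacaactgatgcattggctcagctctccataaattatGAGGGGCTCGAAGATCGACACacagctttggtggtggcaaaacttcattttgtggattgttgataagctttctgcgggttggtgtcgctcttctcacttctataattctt
dod-3 (chrV:2730877-2731076): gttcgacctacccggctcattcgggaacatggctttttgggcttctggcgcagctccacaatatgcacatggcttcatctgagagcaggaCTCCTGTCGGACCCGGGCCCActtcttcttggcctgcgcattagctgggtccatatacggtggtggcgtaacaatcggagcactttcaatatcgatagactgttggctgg
mak-1 (chrII:8744420-8744619): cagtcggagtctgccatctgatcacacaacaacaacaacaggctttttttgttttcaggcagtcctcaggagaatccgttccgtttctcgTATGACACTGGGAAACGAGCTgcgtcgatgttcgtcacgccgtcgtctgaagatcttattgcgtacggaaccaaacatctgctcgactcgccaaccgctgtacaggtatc

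All 8 windows held a summit in coding sequence. The genes vit-6, csr-1, rme-2 and mak-1 lie on the plus strand, and hrde-1, cpg-2, spn-4 and dod-3 on the minus strand. GC content ran from 39.5% at csr-1 to 55.0% at dod-3. Of the motifs searched over all peaks, TGATAA, the letters of a GATA factor site, was found at hrde-1 and spn-4, and both TATAAA and AATAAA were found at csr-1.

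The peaks absent from replicate 2 were on the whole the weaker ones of the 5000. The signal value is the authors' peak score, used here only within 1 list. It ran from 7.97 to 63.2 with a median of 9.89 in the 1033 peaks, against a median of 11.5 and a maximum of 195 in the shared strong peaks. All 1033 carried the highest −log10 q-value of their list, 4.06, so that measure could not rank them. Of the 1000 strongest replicate 1 peaks 112 were absent from replicate 2, and 297 of those at ranks 4001 to 5000. The same ranks of replicate 2 gave 76 and 346 absent from replicate 1. Absence means no entry in a list that reached down to a −log10 q-value of 0.706. It is not proof that the polymerase was lacking at the site, and the number of reads behind either list is unknown.

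**Figure D1:**
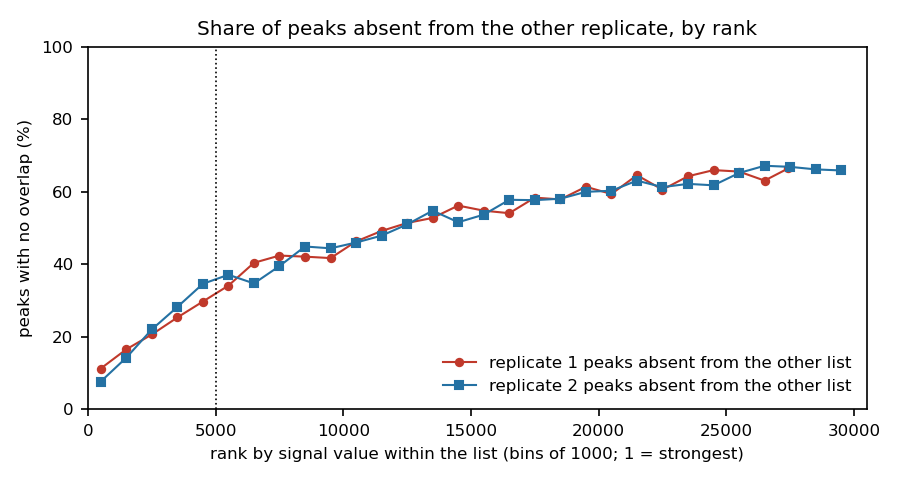
Share of peaks (%) that overlapped no peak of the other replicate, in bins of 1000 peaks by rank of signal value, for replicate 1 (red circles) and replicate 2 (blue squares). The dotted line is at rank 5000, and the share was 29.7% in the last replicate 1 bin before that line and 66.5% in the last bin of all.

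The strongest peak absent from replicate 2 ranked 26 of 27847 (chromosome III, 8654088 to 8654220, signal value 63.2). Its summit lay upstream of F22B7.9, at -230 bp from the 5' end, and upstream of a tRNA gene (WBGene00023001), at -475 bp, and a replicate 2 peak lay 90 bp away. The next ranked 66 (46.0) and lay in the coding sequence of dod-3, a gene named for its response downstream of the DAF-16 factor, with the nearest replicate 2 peak 27884 bp away. The third ranked 74 (44.5) and lay in the coding sequence of sip-1, a small heat shock protein gene. At the lower end the last peaks taken were at F54C8.7 (rank 4995, signal value 7.971) and at the shared window of Y54G9A.7 and bub-3 (rank 5000, 7.967). The first ones past the limit were at imb-3, an importin gene (rank 5004, 7.960), and eef-1G, an elongation factor gene (rank 5006, 7.958), so the limit cuts through a continuous range.

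The set held peaks beside a replicate 2 peak as well as peaks far from one. The nearest replicate 2 peak lay within 100 bp of 252 of the 1033 (24.4%, 95% Wilson interval 21.9 to 27.1), within 500 bp of 527 (51.0%) and within 5000 bp of 813 (78.7%), with a median distance of 473 bp. Intervals here cover the counting of peaks only. At mak-1, a protein kinase gene, the peak absent from replicate 2 (signal value 39.3, rank 102, summit 449 bp from the 5' end) directly adjoined a replicate 2 peak of rank 73 (summit at 580 bp) without overlap. The other 7 replicate 1 peaks of mak-1 overlapped replicate 2 peaks. At hsp-110, a chaperone gene, the peak of rank 105 (39.2, 2138 bp from the 5' end) lay 98 bp from the nearest of 8 replicate 2 peaks, the strongest of which ranked 50. Of the other strongest genes, R107.5 (40.8, distance 68 bp) and lin-14, a regulator of developmental timing (30.6, distance 89 bp), had the same picture, with best replicate 2 ranks of 466 and 324. At mak-1 and hsp-110 most replicate 1 peaks overlapped a replicate 2 peak, and R107.5 and lin-14 held 4 and 5 shared strong summits, so the lists differed there at the selected peak while sharing others in the gene.

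The 506 peaks more than 500 bp from any replicate 2 peak differed in place from the 527 nearer ones. They lay in coding sequence in 44.9% of cases, against 38.3% of the near ones, in introns in 12.5% against 18.4%, and in intergenic sequence in 3.95% against 13.5%. On X lay 6.72% of them, against 8.73% of the near ones. The median signal value was 9.77 in the far ones and 10.2 in the near ones. None of these differences was tested, since distance to replicate 2 is part of how the peaks were selected.

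Coding sequence was the most frequent place of a summit, and the X chromosome held few. Coding sequence held 429 of the 1033 summits (41.5%, 38.6 to 44.6), against 29.6% of the shared strong peaks, 26.4% of the strong peaks of replicate 2 alone and 32.0% of all replicate 1 peaks. Introns held 15.5% (13.4 to 17.8), against 20.4%, 26.5% and 27.8% in the same 3 sets. Sequence outside annotated genes and outside the 500 bp flanks of protein-coding genes held 8.81% (7.23 to 10.7), against 13.01%, 17.9% and 12.5%. The remaining summits lay within 500 bp upstream of a protein-coding gene (14.9%, called promoter and given precedence), in 3' UTRs (6.87%), within 500 bp downstream (5.71%), in 5' UTRs (3.48%) and in non-coding exons (3.19%). The corresponding shares of the shared strong peaks were 17.5%, 5.55%, 6.35%, 4.39% and 3.18%.

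On X, whose genes are largely silent in the worm germline, lay 80 summits (7.74%, 6.27 to 9.54). X held 12.1% of the shared strong peaks and of all replicate 1 peaks, 17.4% of all replicate 2 peaks and 19.8% (17.5 to 22.3) of the strong peaks of replicate 2 alone. Chromosomes I and IV held 20.4% and 20.2% of the 1033, against 15.5% and 17.1% of the shared strong peaks, 16.8% and 11.7% of the strong peaks of replicate 2 alone, and 18.8% and 17.4% of all replicate 1 peaks. The 18.8% lies inside the interval of the 1033 on chromosome I (18.1 to 23). Chromosomes II, III and V held 16.7%, 18.5% and 16.5%. The central 40% of the autosomes, by length, held 50.6% (47.4 to 53.7) of the 953 autosomal summits, against 56.8% of the shared strong peaks and 61.1% of the strong peaks of replicate 2 alone. That share was close to the 50.05% of all replicate 1 peaks. On X the whole lists of the replicates thus stood in the same order as the strong peaks.

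**Figure D2:**
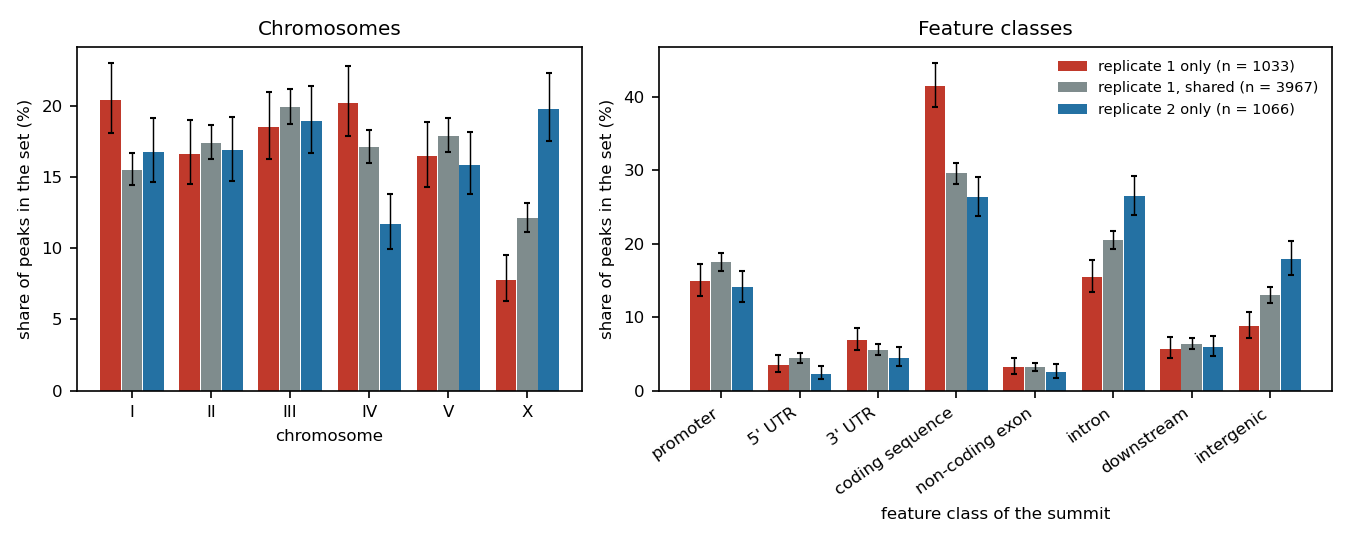
Share of peaks (%) on each chromosome (left) and in each feature class of the summit (right) for strong replicate 1 peaks absent from replicate 2 (red), shared strong replicate 1 peaks (grey) and strong replicate 2 peaks absent from replicate 1 (blue), with 95% Wilson intervals that cover counting only. Replicate 1 alone was high in coding sequence (41.5%) and low on X (7.74%), while replicate 2 alone was high in introns (26.5%) and on X (19.8%).

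In base composition the peaks were close to the shared strong ones. Median GC in the 200 bp around the summit was 40.5%, against 40% in the shared strong peaks, 38% in the strong peaks of replicate 2 alone, 38.5% in all replicate 1 peaks and 37.0% in all replicate 2 peaks. The median width was 304 bp, which most peaks of that list share, against 340 bp in replicate 2. Motifs were searched as plain letters on both strands of the same windows. TGATAA was in 14.5%, against 15.9% of the shared strong peaks and 18.01% of the strong peaks of replicate 2 alone. GAGAGA, a repeat bound by the GAGA factor in Drosophila, was in 15.2%, against 19.1% and 18.9%. A run of T, TTTTTTTT, was in 12.3%, against 14.9% and 17.6%. TATAAA was in 14.2%, against 14.6% and 13.98%. AATAAA was in 28.5%, against 30.3% and 31.3%, and CACGTG in 5.81%, against 5.92% and 4.97%. Over all replicate 1 peaks the shares were 16.02% for TGATAA, 14.5% for GAGAGA, 19.3% for TTTTTTTT, 15.96% for TATAAA, 32.8% for AATAAA and 4.64% for CACGTG. The letters say nothing about whether a factor was bound.

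The pooled list, called by the authors on the reads of both replicates together and so not independent of the selection, held 700 of the 1033 peaks (67.8%, 64.9 to 70.5). It held 98.7% of the shared strong peaks and 98.1% of the strong peaks of replicate 2 alone. The median best rank among overlapping pooled peaks was 13351 of 30000, against 2800 for the shared strong peaks and 5120.5 for the strong peaks of replicate 2 alone. The share of the 1033 was above the 63.3% of all replicate 1 peaks, which lies outside its interval. Of all replicate 2 peaks 86.1% overlapped a pooled peak. The authors' final list of 1103 reproducible peaks overlapped 24 (2.32%), against 24.5% of the shared strong peaks, 3.85% of the strong peaks of replicate 2 alone, 4.76% of all replicate 1 peaks and 4.66% of all replicate 2 peaks. Among those 24 were the strongest peaks at F22B7.9, dod-3, sip-1, R107.5, mak-1, pqn-48 and vit-6.

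A summit was given to every gene of the Ensembl annotation of WBcel235 whose body, or the 500 bp before it, held the summit. Of the 1033 summits, 861 (83.3%) lay in the window of a protein-coding gene and 750 (72.6%) in exactly 1. They fell in 832 of 19973 protein-coding genes, or 4.17%. Shared strong summits fell in 10.1% of protein-coding genes, strong summits of replicate 2 alone in 3.58%, any replicate 1 summit in 43.3% and any replicate 2 summit in 35.6%. Of the 832 genes, 729 held 1 such summit, 87 held 2 and the others 3 to 8. A shared strong summit lay in 255 of them (30.6%). In 332 (39.9%) replicate 2 had no summit at all, and in 500 it had at least 1. The 332 genes had a median length of 2076 bp, near the 2027 bp of all protein-coding genes. The median was 2897 bp for all 832 and 2578.5 bp for genes with a shared strong summit. The 332 were picked for lacking a replicate 2 summit, and a longer window has more room for one, so their length is not independent of that choice. Of the 332, 31.6% had a gene on the same strand ending within 500 bp upstream, the arrangement found in operons. The share was 23.9% of the 832, close to the 23.2% of genes with a shared strong summit. It was 13.4% of genes with a strong summit of replicate 2 alone and 17.9% of all protein-coding genes.

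Within genes the summits lay less often upstream, and more often in the last 25% of the gene, than those of the comparison sets. Their share in the last 25% was close to that in the first 25%. Of the 750 summits in a single gene window, 10.9% (8.90 to 13.4) lay upstream of the 5' end, 27.2% in the first 25% of the gene's length, 26.4% (23.4 to 29.7) in the last 25%, and 35.5% in between. Of the shared strong summits 15.6% lay upstream and 21.9% in the last 25%. Of the strong summits of replicate 2 alone 14.5% lay upstream and 18.4% in the last 25%. Most summits stood alone: joined across gaps of up to 1000 bp, the 1033 peaks formed 938 groups, of which 872 were a single peak and 66 held 2 or more, with 161 peaks in those. The largest groups lay along genes for several kilobases, at vit-6, csr-1, cbd-1, the region of rpl-16, M01F1.8 and lias-1, and rme-2.

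Germline and oocyte genes held such peaks. Of 108 genes on 5 lists (germ granules, RNA-binding regulators of oocyte and embryo, eggshell and oocyte surface, meiotic chromosomes, Argonautes and RNA-dependent RNA polymerases), 28 (25.9%) held a peak, beside 4.17% of all protein-coding genes. Shared strong summits lay in 12 of the 108 (11.1%, beside 10.1%) and strong summits of replicate 2 alone in 2 (1.85%, beside 3.58%). In 25 of the 28 genes replicate 2 had no summit of any strength, beside 332 of all 832 genes with a selected summit (39.9%). Each of the 28 held a peak more than 500 bp from the nearest replicate 2 peak, beside 408 of the 832. The other 80 genes of these lists held none of the selected summits, so their summits are outside the selection. Some replicate 1 summit lay in 63 of them (78.8%), beside 40.9% of the 19141 protein-coding genes without a selected summit, and some replicate 2 summit in 27 (33.8%), beside 34.6%. A summit in replicate 1 and none in replicate 2 was found in 36 of the 80 (45%), beside 13.3%, and the opposite in 0, beside 7.02%. An excess of replicate 1 at germline genes was known from earlier work on these files, so these counts are not independent evidence of it.

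**Figure D3:**
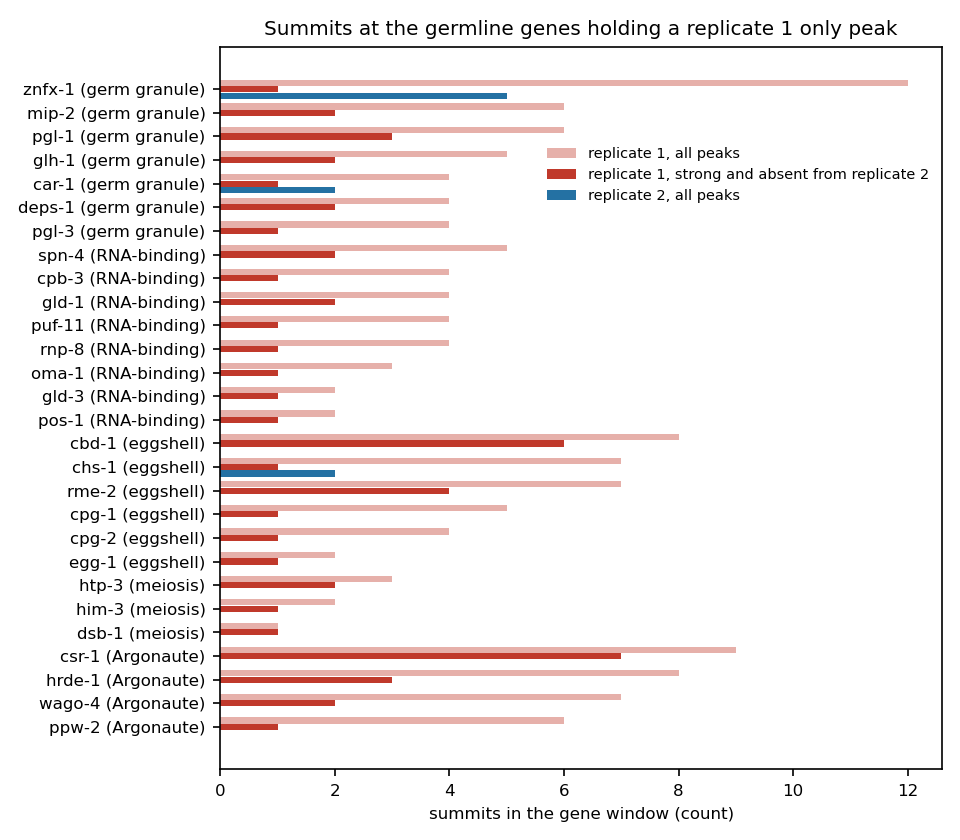
Number of summits in the window (500 bp upstream to the 3' end) of each of the 28 germline genes that held a strong replicate 1 peak absent from replicate 2, for all replicate 1 peaks (pale red), the strong ones absent from replicate 2 (red) and all replicate 2 peaks (blue). Replicate 2 had summits at car-1, znfx-1 and chs-1 and at none of the other 25.

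Germ granules are bodies of RNA and protein at germ cell nuclei, and 7 of 17 of their genes (41.2%) held a peak, against 3 with a shared strong summit. The genes were pgl-1 and pgl-3, which build P granules, the Vasa-like helicase gene glh-1, deps-1, mip-2, the helicase gene znfx-1 and car-1. At pgl-3 the peak was strong (signal value 32.5, rank 167) but its summit lay upstream, at -489 bp from the 5' end and so at the edge of the window, and the other 3 replicate 1 peaks of the gene were lower, down to 2.81. At glh-1 signal values were 13.1 and 12.2, at 1084 and 3037 bp from the 5' end. At car-1 a peak of signal value 32.9 lay in the 3' UTR, 686 bp from the nearest replicate 2 peak, and replicate 2 had 2 summits in the gene. The list's X-linked genes meg-1 to meg-4 held none, and at meg-2 a strong replicate 2 peak was absent from replicate 1.

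Among RNA-binding regulators, which hold maternal messages silent until they are needed, 8 of 26 genes held a peak (30.8%), against 5 with a shared strong summit. At spn-4, needed for cell fates in the early embryo, signal values were 13.4 and 12.99 and replicate 2 had no summit. At oma-1, needed for oocyte maturation, the peak had a signal value of 12.5 and the other 2 replicate 1 summits were weaker. At gld-1, a repressor of translation in the germline, signal values were 11.7 and 9.33, in the 3' UTR and the coding sequence. The others were pos-1, rnp-8, cpb-3, gld-3 and puf-11, with best ranks from 2834 to 4983 and no replicate 2 summit. Other genes of the list, lin-41, gld-2, puf-3, puf-5 and nos-3, held shared strong summits and none of the unshared ones.

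Of 14 eggshell and oocyte surface genes, 6 held a peak (42.9%) and 1, chs-1, a shared strong summit. The gene cbd-1 encodes a chitin-binding protein of the eggshell's outer layer and held 6 such peaks, with signal values from 8.63 to 13.1 and a median of 11.1, spread from 896 to 4316 bp of a gene of 4637 bp. Replicate 1 had 2 weaker peaks there and replicate 2 none within 8679 bp of any of the 8. The gene rme-2 encodes the yolk receptor of the oocyte and held 4 (12.5, 11.1, 10.2 and 9.25), with the replicate 2 peaks nearest to them 31609 to 34205 bp away. The proteoglycan genes cpg-2 and cpg-1, whose products make the inner eggshell layer, held 1 each, with signal values of 16.9 and 15.7. At egg-1, for an oocyte surface protein needed in fertilization, the peak ranked 2192, and at the chitin synthase gene chs-1 replicate 2 had 2 summits.

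Argonautes bind small RNAs, and 4 of 23 genes for Argonautes and RNA-dependent RNA polymerases held a peak (17.4%), against 2 with a shared strong summit. The gene csr-1, whose Argonaute binds small RNAs against germline-expressed genes, held 7, with signal values from 8.62 to 25.05 and a median of 12.7, from 1608 to 4462 bp of its 4891 bp. Replicate 1 had 2 weaker peaks nearer the 5' end, and the nearest replicate 2 peak was 9955 bp from any of the 9. These summits also lie in the window of frpr-10, a peptide receptor gene of 15887 bp that overlaps csr-1, so the gene is ambiguous; frpr-10 counted 8. At hrde-1, the nuclear Argonaute of inherited silencing, 3 peaks had signal values of 14.1, 11.97 and 9.53, and wago-4 held 2 and ppw-2 1. Of 28 genes for meiotic axis, synapsis and recombination 3 held a peak (10.7%) and 1 a shared strong summit. They were the axis genes him-3 (signal value 10.4) and htp-3 (8.41 at its stronger peak) and the break-promoting gene dsb-1, with no replicate 2 summit.

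Both vitellogenin genes with any summit were in the set, with best ranks of 153 and 376. Vitellogenins are the yolk proteins made in the adult intestine. At vit-6 (chromosome IV, 5303 bp) 8 peaks absent from replicate 2 had signal values from 8.38 to 33.4 with a median of 14.5, and ran from 62 to 5112 bp of the gene. Replicate 1 had 3 weaker peaks there and replicate 2 none within 20597 bp of any of the 11. At vit-2 (X, 5128 bp) the 3 peaks had signal values of 23.5, 15.002 and 9.09, with 6 weaker peaks of replicate 1 and none of replicate 2. The remaining 4 genes, vit-1, vit-3, vit-4 and vit-5, held no summit in either list, and some of them are near-identical copies, at which reads may not have been placed. Of 14 other intestinal genes 2 held a peak (14.3%) and 2 a shared strong summit. Those with a peak were the protease genes asp-1 (15.2 and 9.46, no replicate 2 summit) and cpr-1 (8.39, with 1 replicate 2 summit). The intestinal regulator gene elt-2 and the peptide transporter gene pept-1 had no summit in either list. Of genes that define other tissues, 0 of 18 for body wall muscle and 0 of 9 for pharynx held a peak. So few genes cannot set 0 apart from the 4.17% of all protein-coding genes. A peak lay in 2 of 19 genes for neurons (10.5%, unc-31 and unc-13, both in introns) and in 2 of 82 for sperm (2.44%, spe-15 and spe-29).

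**Figure D4:**
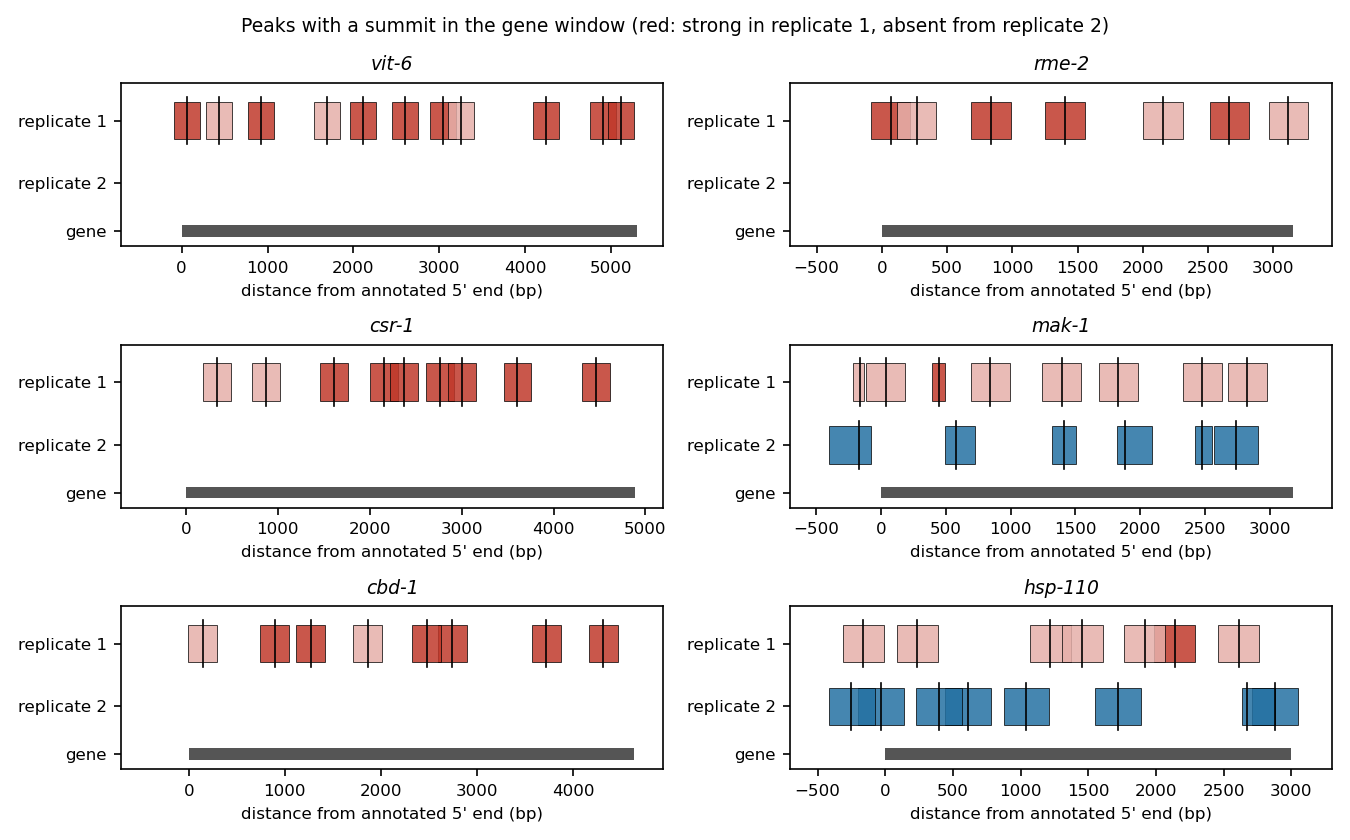
Peaks whose summit lies in the window of vit-6, csr-1, cbd-1, rme-2, mak-1 and hsp-110, by distance from the annotated 5' end (bp) along the direction of transcription; boxes are peaks, vertical lines summits, grey bars genes. Strong replicate 1 peaks absent from replicate 2 are red, other replicate 1 peaks pale red and replicate 2 peaks blue: in the left column and at rme-2 replicate 2 is empty, while at mak-1 and hsp-110 both replicates have peaks along the gene.

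Genes for DNA replication and histones, which dividing germ cells and embryos use heavily, held some peaks. Of 30 replication genes 4 did (13.3%, beside 4.17% of all protein-coding genes): the helicase subunit genes mcm-3, mcm-4 and mcm-7, and pcn-1, for the sliding clamp. Shared strong summits lay in 3 (10%, beside 10.1%) and strong summits of replicate 2 alone in 0 (beside 3.58%). So few genes cannot set that 0 apart from 3.58%. Some lists of genes that most cells use had higher shares, given below. At mcm-3 the peak had a signal value of 11.24 and at mcm-4 of 14.2, and replicate 2 had no summit at either. The mcm-4 summit lay at 3525 bp of a gene of 3527 bp and also in another protein-coding window, so the gene is ambiguous. Of 72 histone genes 7 held a peak (9.72%, beside 4.17%), 4 a shared strong summit (5.56%, beside 10.1%) and 0 a strong summit of replicate 2 alone (beside 3.58%). The pairs his-59 and his-60, his-61 and his-62, and his-67 and his-68 each share their summits, so these 6 genes stand for fewer places, and histone copies are nearly alike. The other histone gene with a peak was his-72. The strongest had a signal value of 28.2, with its summit 231 bp into his-59 and at -488 bp from the 5' end of his-60, 17514 bp from replicate 2. With only summits that lie in 1 gene window, 1 histone gene remained.

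Among genes that most cells use, shares with an unshared summit were often above the 4.17% of all protein-coding genes, and shares with a shared strong summit were above their 10.1% in every such list tried. Counts of genes with an unshared summit are given against counts with a shared strong one, a set with more peaks. Cytosolic ribosomal protein genes held peaks in 13 of 80 (16.2%), led by rpl-16 (20.7) and rps-6 (20.4), but shared strong summits in 28 (35%), and replicate 2 had a summit in 11 of the 13. The proteasome had 6 of 33 (18.2%) against 18 (54.5%), oxidative phosphorylation 6 of 68 (8.82%) against 22 (32.4%), splicing factors 4 of 39 (10.3%) against 16 (41.03%), and glycolysis 2 of 18 (11.1%) against 11 (61.1%). The 2 glycolysis genes were ipgm-1, for a phosphoglycerate mutase (28.7), and gpd-1, for a glyceraldehyde-3-phosphate dehydrogenase (16.1, with its summit at -446 bp from the 5' end). Heat shock genes with an hsp symbol, which leaves out sip-1, had 1 of 22 (4.55%), hsp-110, against 13 (59.1%). The cytosolic chaperonin had 1 of 8, cct-5, against 7, and the vacuolar proton pump 0 of 20 against 14. Translation initiation factors had 3 of 25 (12%) against 4 (16%), elongation factors 1 of 6 (eef-1G) against 5, tRNA synthetases 2 of 31 against 4 and mitochondrial ribosomal proteins 3 of 66 against 11. RNA polymerase II subunit genes had 2 of 12, rpb-3 (10.4) and rpb-4 (9.53), against 2 (16.7% each). The gene of the precipitated protein, ama-1, held none: its 7 replicate 1 summits ranked 5363 at best, and its 3 replicate 2 summits 2048.

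Large families of genes used in few cells were mostly at or below the background of 4.17%. Chemoreceptors had 7 of 1310 (0.534%), led by sre-45 and srt-47, nuclear hormone receptors 8 of 269 (2.97%, against 26 with a shared strong summit), neuropeptides and insulins 2 of 140, homeobox genes named ceh 1 of 63 (ceh-19), C-type lectins 5 of 240, and cytochrome P450 and conjugating enzymes 2 of 185. Fatty acid desaturases had 1 of 7, fat-6 (12.3). Cuticle collagens had 9 of 171 (5.26%), against 2 with a shared strong summit and 13 with a strong summit of replicate 2 alone, so here each replicate had peaks of its own. The strongest collagen peaks were at col-184 (19.9 and 9.07, on X, 49626 bp from replicate 2 at the stronger) and col-124 (19.6), whose window overlaps that of qns-1.

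**Figure D5:**
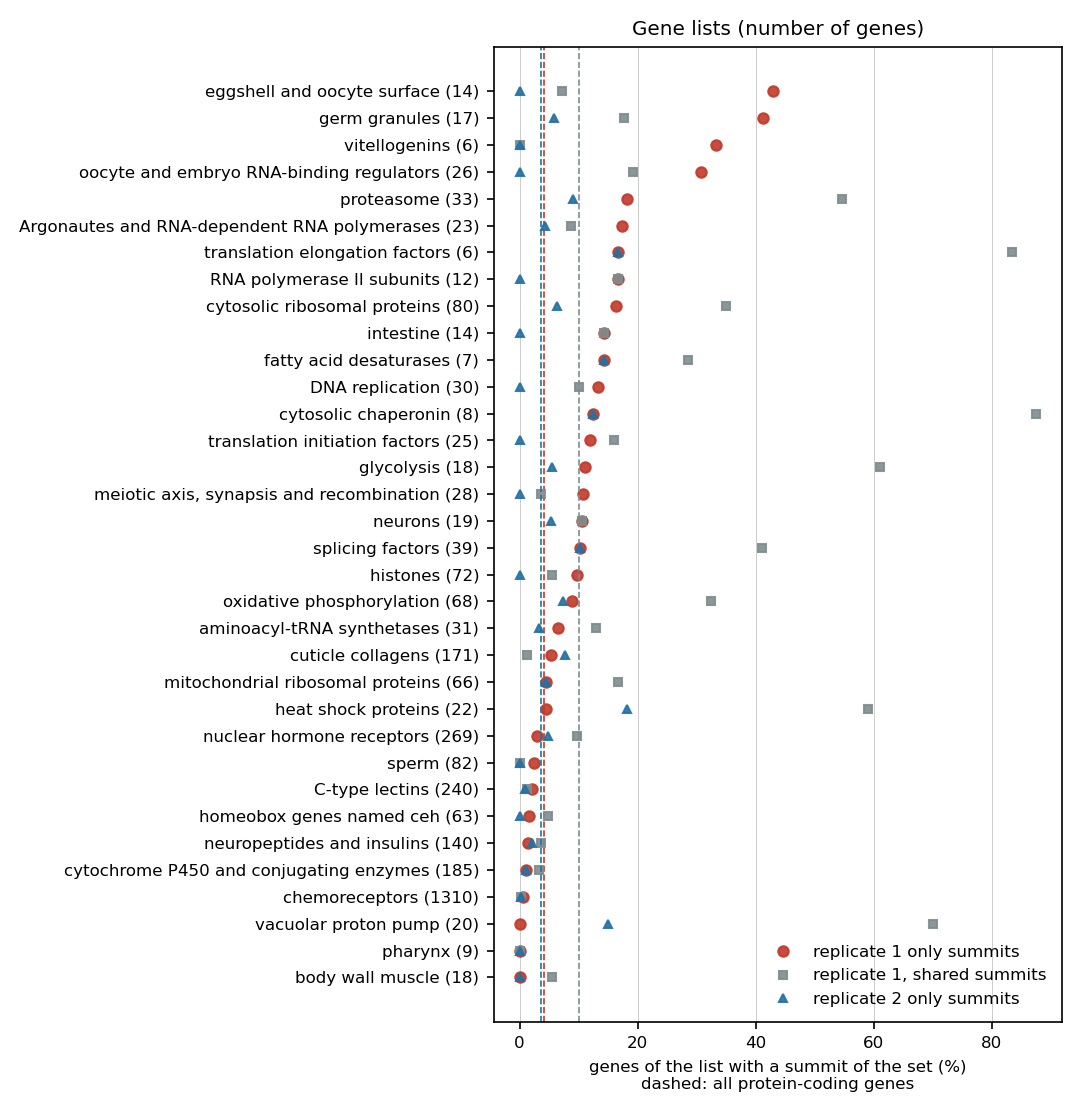
Share of the genes of each list (%) with a summit of strong replicate 1 peaks absent from replicate 2 (red circles), shared strong replicate 1 peaks (grey squares) and strong replicate 2 peaks absent from replicate 1 (blue triangles); dashed lines are the shares of all protein-coding genes, 4.17%, 10.1% and 3.58%. The eggshell list (42.9%) and germ granules (41.2%) lie farthest to the right for replicate 1 alone, while housekeeping lists lie to the right for shared peaks.

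Some of the strongest peaks lay at non-coding genes or at genes of no list. Apart from the tRNA gene near the strongest peak, the strongest of each non-coding class were W03B1.17, a small nucleolar RNA gene (signal value 43.0, rank 82, 9493 bp from replicate 2), the ncRNA gene F43D9.8, which shares the 2 summits of sip-1, the pseudogene WBGene00007578 (17.1), the piRNA gene 21ur-12499 (18.4), the microRNA gene cel-mir-77 (17.7), the small nuclear RNA gene F40G12.14 (15.6), the antisense gene anr-36 (13.4) and linc-136 (9.70). Most of these summits lie in the window of a protein-coding gene as well. By class, 18 of 612 tRNA genes (2.94%), 13 of 346 small nucleolar RNA genes (3.76%), 8 of 129 small nuclear RNA genes (6.20%), 8 of 261 microRNA genes (3.07%), 3 of 194 long intergenic RNA genes, 62 of 7764 ncRNA genes, 1 of 100 antisense genes, 11 of 2128 pseudogenes and 30 of 15363 piRNA genes held a summit. Shared strong summits were in 26, 58, 16, 27, 15, 349, 8, 14 and 76 of the same classes. Beside them, 4.17% of protein-coding genes held a selected summit and 10.1% a shared strong one. Gene lengths differ between classes, so these shares are not matched. None of 20 ribosomal RNA genes held either. These are counts of genes and not of separate peaks, since neighbouring genes can share a summit. The microRNA genes cel-mir-36 to cel-mir-40 shared the peak of rank 4274, and groups of piRNA genes on chromosome IV also shared peaks. Among protein-coding genes outside the lists, pqn-48, for a glutamine-rich protein (35.3, rank 132), and Y43B11AR.3 (30.7) had no replicate 2 summit, while the long genes lea-1 (16246 bp) and daf-2, the insulin receptor gene (46333 bp), each held 5 peaks beside 14 and 33 replicate 2 summits.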

How the data were processed

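AMA-1 ChIP-seq peaks of whole young adult worms were measured in 2 biological replicates. Per the READMEs deposited with each sample, relaxed lists hold peaks and background and were made from alignments and a control alignment, which was not used here; the pooled list came from both replicates, and the final one from the irreproducible discovery rate (IDR) procedure. Aligner, peak caller and versions: not given in the sources used here. In the lists the authors deposited, the signal value is a score, the q-value column holds −log10 values, and the summit offset is in bases; the depth is unknown, so Wilson intervals cover counting only. Of the 5000 strongest replicate 1 entries on ce11, those without a 1 bp overlap in replicate 2 were kept and placed on Ensembl release 115 genes. Coordinates are 1-based. The rule can also be read as the 5000 strongest of all non-overlapping entries, tried as an alternative. No test was run, since the selection used these values. The members and the 34 gene lists were chosen with earlier results of these data known. Named genes were the 12 strongest in 1 protein-coding window, the 8 with most summits, the strongest 2 of each list, ama-1, the strongest of each non-coding class, and the peaks at both ends of the range; in the germline and histone lists all genes with such a peak were named, and other genes were named after their values were seen. Overlap and gene placement were tested on simulated data. Alternatives changed the overlap, the number taken, the windows and the build (ce10). Tables were handled with pandas 2.3.3 and numpy 2.4.6, intervals computed with scipy 1.17.1 and figures drawn with matplotlib 3.10.9, all under Python 3.11.15.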

Additional observations from a re-analysis of the deposited data

How the results depend on the processing

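Over 12 settings, 117 of 161 values moved by less than their counting interval or 1.5 times. The share on X was not computed in the settings that changed only gene or feature windows. Among the others it moved by more in 1, and on ce10 it was again 80 of 1033. The setting that merged entries with the same interval could change nothing, because 0 of the peaks shared an interval with another entry. Its unchanged values are among the 117 and say nothing about stability. With no replicate 2 entry allowed within 500 bp, 506 peaks remained in 408 protein-coding genes, with 44.9% in coding sequence, 12.5% in introns, 8.10% downstream, 3.95% intergenic, 58.7% in the pooled list and 4 ribosomal protein genes; all 28 germline genes held one. With replicate 2 covering less than 50% of the peak, there were 1918 peaks in 1360 genes, with 10.3% on X, 36.7% in coding sequence, 19.1% in introns, 10.8% intergenic, 80.8% in the pooled and 9.70% in the final list, and 21 ribosomal protein genes. Taking the 2500 strongest gave 378 peaks in 319 genes (75.1% pooled, 6.35% final), 16 germline, 7 ribosomal protein and 0 muscle, pharynx and neuron genes. Taking 10000 gave 3040 peaks in 2245 genes (20.4% in introns, 53.7% pooled, 0.954% final), with 55, 25 and 8 genes of those lists. The other reading of the rule gave 5000 peaks in 3282 genes (22.8% in introns, 45.7% pooled, 0.580% final), with 65, 31 and 14 genes of those lists and 11 histone genes. Windows of 250 bp put 7.55% in promoters and 11.3% in intergenic sequence. Counting only summits in 1 gene window left 1 histone gene and 25 of the 28 germline genes. These shifts in number follow from how each setting is built; the cause of the shifts in shares was not tested. List counts under other selection rules were added after seeing the data. The share in autosome centres was not run on ce10. No paired analysis was possible because there is 1 group, and leaving out a replicate leaves no such set.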
